A study of Mus musculus with 35 samples.

Results

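Perforin (Prf1) and 8 granzymes (Gzma, Gzmb, Gzmc, Gzmd, Gzme, Gzmf, Gzmk and Gzmm) were followed in cytotoxic T cells cultured at different pH. These 9 genes were named by symbol and found through their Ensembl identifiers among the 48709 genes of the count tables. All 9 passed the filter on low counts.

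The cells were OT-I cytotoxic T lymphocytes (CTLs), CD8+ T cells of mice whose T cells carry a transgenic receptor for an ovalbumin peptide. They had been primed with plate-bound anti-CD3 and anti-CD28 and expanded for days in IL-2, the cytokine that keeps activated T cells growing, so all 7 groups shared that history. The 0 h group is the cells as the cultures were set up. The other 6 groups spent 24 h in medium of pH 7.4, pH 7 or pH 6.6, acidified with hydrochloric acid, each with or without IL-2 at 200 IU/mL. Medium of pH 7.4 is called neutral here and medium of pH 6.6 acid. Each group had 5 biological replicates, and the study cultured cells of the same replicates in every condition. The methods do not say whether a biological replicate was a separate mouse, so the p-values measure the spread between these cultures. Dead cells were removed on a density gradient before RNA extraction, and the libraries therefore describe the cells that survived. As a model this is 1 receptor specificity studied in vitro, away from target cells.

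Cytotoxic T cells kill by releasing granules at the contact with a target cell. Perforin makes pores in the target membrane, and granzymes are serine proteases that pass into the target and cut proteins there. Granzyme B cuts after aspartate and activates caspases, granzymes A and K cut after basic residues, granzyme M cuts after hydrophobic residues such as methionine, and the substrates of mouse granzymes C, D, E and F are less well known. IL-2 receptor signalling, partly through STAT5, is a known inducer of Prf1 and Gzmb in activated CD8+ T cells.

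By the GENCODE M21 annotation (GRCm38), 5 of the members belong to 1 granzyme cluster on chromosome 14. Between 56117626 and 56262260, a span of 144.6 kb, lie Gzme, Gzmd, Gzmg, Gzmn, Gzmf, Gzmc and Gzmb, all on the minus strand, and these 7 granzymes are the only protein-coding genes there. Gzma (chr13:113093825-113100981) and Gzmk (chr13:113171608-113225908) are neighbours on the minus strand of chromosome 13. Prf1 (chr10:61297833-61304680) and Gzmm (chr10:79689020-79695261) lie on the plus strand of chromosome 10. All 9 are protein-coding, and the counts cover their exons.

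Gzmc, Gzmd, Gzme and Gzmf share stretches of sequence with other granzymes of the cluster, which limits their counts because reads aligned to more than 1 place were not counted. Of all 50-base windows of the Gzmd transcript 78.1% occur in no other gene, against 79.3% for Gzme, 92.6% for Gzmf and 95.9% for Gzmc. Gzmd and Gzme share 110 windows with each other. For Prf1, Gzma, Gzmb, Gzmk and Gzmm every window (100%) is found in no other gene. The levels of Gzmc, Gzmd, Gzme and Gzmf are therefore uncertain. The antisense gene Gm4022 covers 16.4% of the exon bases of Gzmf, and the strand setting of the counting is not given in the sources used here, so reads of the antisense gene may be included for Gzmf.

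The likeness also holds before the transcription start, and 4 upstream sequences are shown because they set the nearly identical pair Gzmd and Gzme beside Gzmb and Gzma, which had the largest fall in acid with IL-2 and the largest rise in acid without it. Windows of 250 bases before the RefSeq start (GRCm38.p6) were found for 9 of 9 members. The RefSeq start used for Gzmk was 44943 bases from its GENCODE start, so that its window lies inside the gene by GENCODE. The Gzmd and Gzme windows were 94.8% identical over their alignment. Among Gzmc, Gzmd, Gzme and Gzmf the identity ranged from 71.5% to 94.8%, and no other pair of members was above 54.0%. In the sequences, written 5′ to 3′ on the strand of the gene, capitals mark exact matches to the Runx motif TGTGGT (or ACCACA, its reverse complement) and the AP-1 motif TGANTCA. The Gzmd sequence is shorter because the last 15 bases of its window lie inside the gene by GENCODE.
Gzmd, minus strand, chr14:56132609-56132843: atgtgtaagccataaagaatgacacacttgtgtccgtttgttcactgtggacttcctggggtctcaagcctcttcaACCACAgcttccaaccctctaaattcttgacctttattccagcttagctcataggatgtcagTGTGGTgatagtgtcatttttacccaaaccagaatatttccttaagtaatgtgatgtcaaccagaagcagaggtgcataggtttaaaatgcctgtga
Gzme, minus strand, chr14:56120626-56120875: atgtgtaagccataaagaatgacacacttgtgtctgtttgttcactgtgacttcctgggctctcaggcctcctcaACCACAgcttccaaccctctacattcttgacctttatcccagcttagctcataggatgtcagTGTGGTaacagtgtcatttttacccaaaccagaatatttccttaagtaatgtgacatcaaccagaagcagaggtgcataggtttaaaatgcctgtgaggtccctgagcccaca
Gzmb, minus strand, chr14:56262335-56262584: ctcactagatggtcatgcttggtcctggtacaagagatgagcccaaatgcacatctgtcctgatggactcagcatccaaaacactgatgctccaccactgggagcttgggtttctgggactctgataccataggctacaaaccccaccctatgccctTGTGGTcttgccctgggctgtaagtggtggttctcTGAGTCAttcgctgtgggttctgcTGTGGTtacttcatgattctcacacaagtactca
Gzma, minus strand, chr13:113100982-113101231: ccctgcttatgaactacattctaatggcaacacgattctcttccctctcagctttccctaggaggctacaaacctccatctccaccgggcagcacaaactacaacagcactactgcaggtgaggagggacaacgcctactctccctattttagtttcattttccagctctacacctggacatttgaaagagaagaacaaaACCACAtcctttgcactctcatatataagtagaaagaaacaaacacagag

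The Runx motif, searched on both strands, was present in the windows of 8 of 9 members, all but Gzmk, and in 14% of the 32851 RefSeq windows of the same length. For Gzmk the absence holds for the RefSeq start only, as the sequence before its distant GENCODE start was not searched. Because Gzmc, Gzmd, Gzme and Gzmf share much of their upstream sequence, their matches are not separate observations. The AP-1 motif was found in Gzmb alone among the members, and in 6.75% of all windows. The CRE motif TGACGTCA was found in Gzmc and Gzmf, and in 1.55% of all windows. The STAT motif TTCNNNGAA was found in Gzmm alone, and in 7.02% of all windows. The E-box CACGTG was in 0 of 9 members and 6.02% of all windows. No match overlapped another. These are matches of letters and do not show that a factor binds.

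The libraries held between 16721319 and 34033340 counts on genes, with a median of 24730020, and the shallowest was replicate 1 at pH 6.6 with IL-2. Values are CPM, gene counts scaled to libraries of a common size with edgeR's TMM factors, and levels of different genes are compared as CPM per kilobase of exon (RPKM). Within a group, 70 pairs of libraries were compared and none differed by as little as sampling noise. The labelled cell type was checked against its markers: Cd3d, Cd3e, Cd3g, Cd8a, Cd8b1 and Trac were between 212 and 1596 CPM in every library, and Cd4 reached at most 2.48 CPM. Of 3 natural killer cell markers, Ncr1 and Klra8 stayed at or below 0.0694 CPM and were at 0 in 25 and 34 of the 35 libraries. The third, Klrb1c, was detected in every library, and the summed markers ranged from 83.4 to 95.0 CPM at 0 h, 20.7 to 40.8 at pH 7.4, 8.27 to 12.1 at pH 6.6, and with IL-2 from 43.0 to 45.8 in neutral and 19.4 to 33.2 in acid medium. Of 6 mast cell and basophil markers, whose proteases belong to a related gene family, Cpa3 and Mcpt8 reached 16.8 and 7.95 CPM and Mcpt4 was at 0 in all 35 libraries. What part the cells or transcripts behind these markers have in the values of Prf1 and the granzymes was not tested. In such bulk libraries fewer expressing cells and less mRNA per cell cannot be told apart.

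Granzyme B was the most abundant member in CTLs before the experiment. At 0 h, levels per length were 5542 ± 739 RPKM (SD, n = 5) for Gzmb, 2324 ± 879 for Gzma, 561 ± 236 for Gzmd, 529 ± 150 for Gzmc, 238 ± 99.1 for Gzme and 199 ± 52.1 for Prf1. Gzmf and Gzmk were near 50 RPKM (51.6 ± 23.6 and 49.6 ± 8.68), and Gzmm was the lowest member at 7.70 ± 1.82 RPKM. The 9 genes together took a median of 1.13% of all gene counts at 0 h and 1.14% after 24 h in neutral medium with IL-2. The share of counts fell to 0.878% and 0.282% in the 2 acidified groups with IL-2, pH 7 and pH 6.6. In the absence of IL-2 the share was 0.134% at pH 7.4, 0.124% at pH 7 and 0.160% at pH 6.6.

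**Figure D1:**
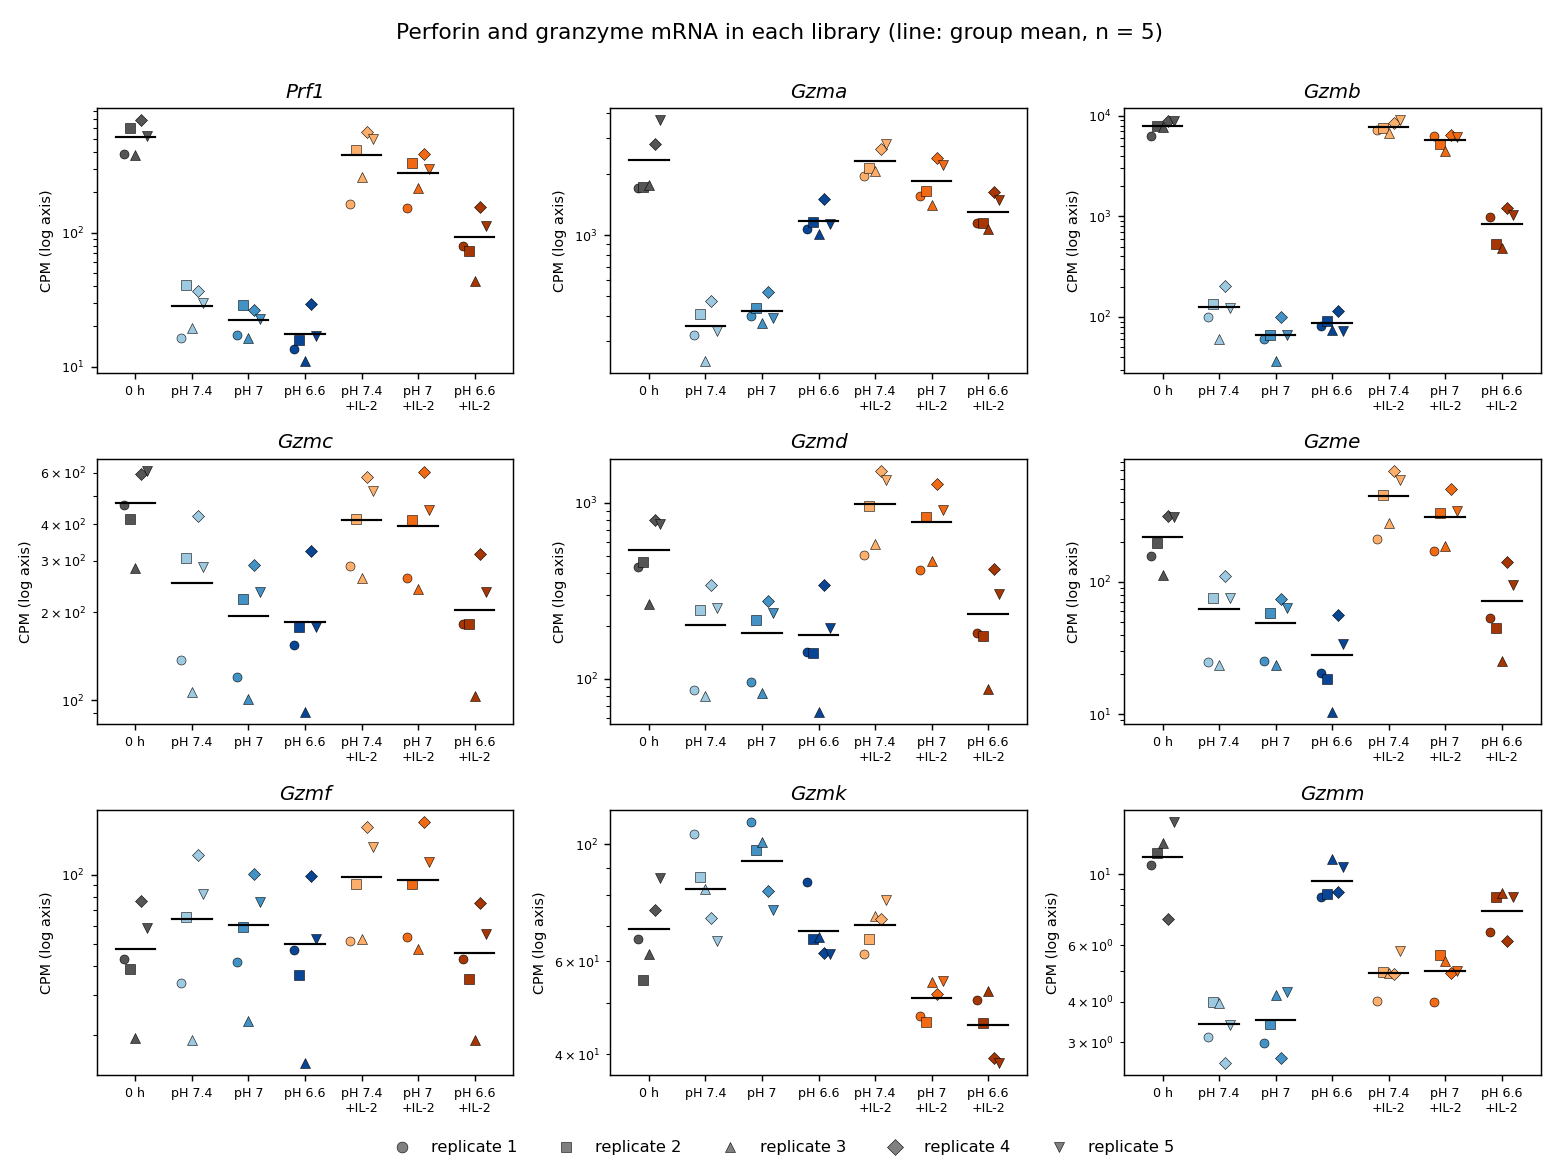
Levels of the 9 members in each of the 35 libraries, in CPM on log axes with a separate range for each gene; marker shape gives the replicate number and the line the mean of 5 libraries. Prf1 and Gzmb drop without IL-2 and, with IL-2, at pH 6.6, whereas Gzma and Gzmm are higher in acid than in neutral medium without IL-2.

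Perforin mRNA was high wherever IL-2 was present at pH 7.4 or pH 7 and was lower at pH 6.6. In replicates 1 to 5, Prf1 was 387, 603, 376, 686 and 521 CPM at 0 h. After 24 h with IL-2 it was 164, 412, 260, 562 and 501 CPM at pH 7.4. In acid with IL-2 it was 79.7, 73.5, 43.5, 156 and 111 CPM, so that the highest acid library was below the lowest library at pH 7.4. With IL-2, Prf1 was 4.03-fold lower in acid than in neutral medium (log2 fold change -2.01 ± 0.17 SE, adjusted p = 1.68e-12, edgeR). Withdrawal of IL-2 lowered it further at each pH. Without IL-2 the libraries held 16.5, 41.0, 19.5, 36.5 and 29.8 CPM at pH 7.4. At pH 6.6 without IL-2 they held 13.7, 15.9, 11.1, 29.5 and 17 CPM. These 2 groups overlapped, with a log2 fold change of -0.71 ± 0.17 (adjusted p = 5.08e-04, edgeR), which did not pass without the replicate block (adjusted p = 0.0707). From the highest mean (0 h, 514 ± 135 CPM) to the lowest (pH 6.6 without IL-2, 17.4 ± 7.12 CPM), Prf1 spanned 29.5-fold, and in the order of the 7 means only the step from pH 6.6 with IL-2 to pH 7.4 without IL-2 had no overlap of libraries.

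Granzyme B, the protease that activates caspases in the target cell, was the most responsive member. The libraries held 6323, 7856, 7800, 8916 and 8894 CPM at 0 h. At pH 7.4 with IL-2 the range overlapped with it, at 7211, 7607, 6696, 8458 and 9010 CPM. At pH 7 with IL-2 they were 6228, 5184, 4461, 6495 and 6091 CPM, all below the pH 7.4 group. In acid they were 976, 528, 482, 1215 and 1023 CPM, far below every library at the higher pH. With IL-2, Gzmb was 9.62-fold lower in acid than in neutral medium (log2 fold change -3.27 ± 0.18, adjusted p = 5.08e-17, edgeR). Of this, the step from pH 7.4 to pH 7 gave -0.46 ± 0.16 (adjusted p = 0.0445) and the step from pH 7 to pH 6.6 gave -2.80 ± 0.18 (adjusted p = 2.66e-15). The smaller step did not pass without the replicate block (adjusted p = 0.231).

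Without IL-2, Gzmb was low at any pH. It was 101, 135, 60.4, 202 and 124 CPM at pH 7.4. At pH 7 it was 60.5, 66.3, 36.7, 99.1 and 65.8 CPM, and at pH 6.6 it was 81.0, 90.2, 74.4, 114 and 72.7 CPM. The 3 groups overlapped. Against pH 7.4, Gzmb was lower at pH 7 (log2 fold change -0.90 ± 0.17, adjusted p = 0.00231, edgeR) and at pH 6.6 (-0.46 ± 0.17, adjusted p = 0.0164), and against pH 7 it was higher at pH 6.6 (0.44 ± 0.17, adjusted p = 0.0204). None of these 3 calls passed without the replicate block, where the adjusted p-values were 0.0906, 0.0630 and 0.160. The means spanned 121-fold, from 7958 ± 1061 CPM at 0 h to 65.7 ± 22.3 CPM at pH 7 without IL-2, the widest span among the 9 genes. Even at pH 6.6, IL-2 kept Gzmb 9.44-fold higher than without it (log2 fold change 3.24 ± 0.18, adjusted p = 1.04e-14), with no overlap of libraries.

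Granzyme A, a tryptase, did not follow granzyme B. At 0 h it was 1708, 1724, 1765, 2811 and 3681 CPM. At pH 7.4 with IL-2 it was 1947, 2137, 2081, 2647 and 2825 CPM, within the range at 0 h. At pH 6.6 with IL-2 it was 1154, 1143, 1076, 1623 and 1483 CPM, below every library at pH 7.4. The fall was 1.8-fold (log2 fold change -0.85 ± 0.12, adjusted p = 1.02e-07, edgeR). Without IL-2 the direction turned. Gzma was 322, 409, 240, 471 and 338 CPM at pH 7.4. At pH 7 it was 399, 436, 367, 524 and 389 CPM, which overlapped with pH 7.4. At pH 6.6 it was 1075, 1162, 1009, 1499 and 1131 CPM, above every library at pH 7.4 and pH 7. Gzma was thus 3.33-fold higher in acid than in neutral medium when IL-2 was absent (log2 fold change 1.74 ± 0.12, adjusted p = 8.20e-14), in 5 of 5 replicates. At pH 6.6 the libraries with and without IL-2 overlapped, with a log2 fold change of 0.13 ± 0.12 for IL-2 (adjusted p = 0.459). In the order of the means, only the step from pH 6.6 to pH 7 without IL-2 separated the libraries.

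Granzymes D and E, the nearly identical neighbours, rose above their starting level with IL-2 at pH 7.4. Gzmd was 429, 461, 265, 795 and 756 CPM at 0 h. At pH 7.4 with IL-2 it was 503, 952, 584, 1504 and 1336 CPM, higher than at 0 h in each replicate although the ranges overlapped. At pH 6.6 with IL-2 it was 183, 175, 88.0, 421 and 304 CPM, all below the pH 7.4 group. With IL-2, the log2 fold change from neutral to acid was -2.11 ± 0.17, a 4.32-fold fall (adjusted p = 1.31e-12, edgeR). Without IL-2, Gzmd was 86.7, 246, 79.7, 340 and 253 CPM at pH 7.4. At pH 6.6 it was 141, 141, 65.1, 340 and 194 CPM, and the groups overlapped throughout, with a log2 fold change of -0.16 ± 0.17 (adjusted p = 0.418). Without replicate 1, the only replicate in which Gzmd was higher at pH 6.6, it was -0.40 (adjusted p = 0.0218).

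Gzme fell more than Gzmd in acid. It was 211, 452, 278, 685 and 585 CPM at pH 7.4 with IL-2. In acid with IL-2 it was 53.7, 45, 25.4, 140 and 94.5 CPM, all lower (6.53-fold, log2 fold change -2.71 ± 0.19, adjusted p = 9.21e-14, edgeR). Without IL-2 it was 25, 76.1, 23.6, 111 and 75.4 CPM at pH 7.4. At pH 6.6 it was 20.4, 18.6, 10.4, 55.8 and 34 CPM, lower in 5 of 5 replicates although the ranges overlapped (log2 fold change -1.13 ± 0.19, adjusted p = 6.29e-06). When the counts of Gzmd and Gzme were added and tested as 1 gene, an alternative chosen after seeing the data, the log2 fold change of the sum without IL-2 was -0.33 (adjusted p = 0.0868).

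Granzymes C and F changed less. With IL-2, Gzmc fell from 414 ± 140 CPM (SD, n = 5) at pH 7.4 to 204 ± 78.6 CPM at pH 6.6. The libraries ranged from 261 to 582 CPM and from 103 to 317 CPM, so the groups overlapped, but each acid library was below the pH 7.4 library of its replicate (log2 fold change -1.04 ± 0.13, adjusted p = 1.64e-08, edgeR). Gzmf fell from 97.5 ± 48.3 to 45.6 ± 21.2 CPM, also in 5 of 5 replicates and with overlap (-1.10 ± 0.16, adjusted p = 3.06e-07). Without the replicate block the adjusted p for Gzmf was 0.0524. Without IL-2 Gzmc was 252 ± 131 CPM at pH 7.4 and 185 ± 85.3 CPM at pH 6.6 (-0.39 ± 0.13, adjusted p = 0.00914, and 0.304 without the block). Gzmf was 64.4 ± 40.6 and 50.0 ± 30.7 CPM (-0.32 ± 0.16, adjusted p = 0.0735), and without replicate 1 the log2 fold change was -0.56 (adjusted p = 4.55e-04).

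Among replicates, 4 was often the highest and 3 the lowest library of a group. Replicate 4 was the highest library of its group in 7 of 7 groups for Gzmd, Gzme and Gzmf, in 6 of 7 for Gzmc and Gzmb, and in 5 of 7 for Prf1 and Gzma, which lie outside the cluster. Replicate 3 was the lowest in 7 of 7 groups for Gzmc, in 6 for Gzmf, in 5 for Gzma, Gzmb, Gzmd and Gzme and in 4 for Prf1. The coefficient of variation within a group reached 52.0% for Gzmc, 58.1% for Gzmd, 63.9% for Gzme and 63.0% for Gzmf. It reached 45.9% for Prf1, 41.9% for Gzmb, 37.8% for Gzma, 23.7% for Gzmm and 18.2% for Gzmk. Several changes of Gzmc and Gzmf passed the test only with the replicate block, a term of the fit for such differences between cultures.

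Granzyme K, a tryptase related to granzyme A, was the member least raised by IL-2. Its mean was highest at pH 7 without IL-2 (92.9 ± 14.4 CPM, SD, n = 5) and lowest at pH 6.6 with IL-2 (45.5 ± 6.44 CPM), a span of 2.04-fold. With IL-2 it was 62.0, 66.0, 73.1, 72.1 and 78.3 CPM at pH 7.4. At pH 7 it was 47.3, 46.0, 54.8, 52.1 and 55.1 CPM, and at pH 6.6 it was 50.7, 45.8, 52.8, 39.4 and 38.6 CPM, so that both acidified groups were below every library at pH 7.4. The log2 fold change was already -0.46 ± 0.12 at pH 7 (adjusted p = 0.00595, edgeR) and -0.64 ± 0.12 at pH 6.6 (adjusted p = 1.58e-05), with -0.17 ± 0.12 between pH 7 and pH 6.6 (adjusted p = 0.190). Without IL-2, Gzmk was 105, 86.6, 82.2, 72.3 and 65.6 CPM at pH 7.4 and 84.7, 66.2, 66.7, 62.3 and 61.9 CPM at pH 6.6. That difference of -0.27 ± 0.12 lay at the threshold (adjusted p = 0.0470, and 0.0569 without the block), and it was not called without replicate 2 (adjusted p = 0.106), 3 (0.152) or 4 (0.0831).

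Granzyme M, which prefers methionine, was the only member higher in acid both with and without IL-2, and it was also the least abundant. With IL-2 it was 4.01, 4.96, 4.93, 4.88 and 5.78 CPM at pH 7.4. At pH 6.6 it was 6.59, 8.52, 8.72, 6.21 and 8.5 CPM, above every library at pH 7.4 (log2 fold change 0.64 ± 0.11, adjusted p = 5.95e-06, edgeR). Without IL-2 the rise was larger. The libraries held 3.10, 4.0, 3.98, 2.59 and 3.38 CPM at pH 7.4. At pH 6.6 they held 8.5, 8.66, 11.2, 8.80 and 10.5 CPM, again with no overlap (2.80-fold, log2 fold change 1.48 ± 0.12, adjusted p = 8.98e-13). The starting cells held 10.7, 11.7, 12.5, 7.24 and 14.5 CPM, a range that overlapped with both pH 6.6 groups and with no group at pH 7 or pH 7.4.

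Acid against neutral medium with IL-2 present asks whether low pH changes these mRNAs in CTLs that receive their growth factor. The libraries measure neither protein nor killing. In a separate and shorter assay, the paper found lysis of tumour cells by OT-I CTLs to be alike at these pH values. The comparison of acid with neutral medium, IL-2 present, called 9 of 9 members, where 76.3% of the 13819 genes tested were called. Of the members 8 were lower, against 40.9% of all genes tested, and Gzmm alone was higher. The median log2 fold change was -1.10 over the members and -0.07 over all genes. At pH 7 with IL-2, 4 of 9 members were called against 19% of all genes, namely Gzma, Gzmb, Gzme and Gzmk, all lower. Their log2 fold changes lay between -0.51 and -0.35, and 1 member passed without the replicate block (12% of all genes). The calls at pH 7 also rested on single replicates. Gzma was lost without replicate 1, 2, 3 or 4 (adjusted p from 0.0647 to 0.193), Gzmb without replicate 2, 3, 4 or 5 (0.0723 to 0.126) and Gzme without replicate 3, 4 or 5 (0.0931 to 0.165). In the step from pH 7 to acid, IL-2 present, 8 of 9 were called against 72.4%, with 7 lower and Gzmm higher. Most of the change in Prf1 (-1.59 ± 0.16), Gzmb, Gzmd (-1.79 ± 0.17) and Gzme (-2.19 ± 0.19) from neutral to acid medium with IL-2 thus came in the step below pH 7.

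Without IL-2 the members split. At pH 6.6 against pH 7.4, 7 of 9 were called against 67.0% of all genes. Gzma and Gzmm were higher, and Prf1, Gzmb, Gzmc, Gzme and Gzmk were lower. Without the replicate block 3 were called, Gzma, Gzmm and Gzme, against 62.2% of all genes. The call for Gzmb was also lost without replicate 4 (adjusted p = 0.0942) or 5 (0.0880), and that for Gzmc without replicate 2 (0.0616) or 5 (0.0761). At pH 7 against pH 7.4, Gzmb alone was called (1 of 9, against 1.68% of all genes), 0 of 9 without the block (0.405% of all genes) and 6 of 9 when only these groups were fitted (7.32%). Between pH 7 and pH 6.6, 6 of 9 were called against 66.6%, with Gzma (1.47 ± 0.12), Gzmm (1.45 ± 0.11) and Gzmb higher and Prf1 (-0.40 ± 0.17), Gzme (-0.86 ± 0.19) and Gzmk (-0.44 ± 0.12) lower, and 3 without the block (62.4% of all genes). The call for Prf1 held in 4 of 13 alternatives. It was lost, for instance, with RLE scaling (adjusted p = 0.0705), with DESeq2 (0.0555) and without replicate 2 (0.146), 3 (0.132) or 5 (0.0954). The call for Gzmb held in 7 of 13 and was lost without replicate 1 (0.0577), 2 (0.05) or 3 (0.0669).

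**Figure D2:**
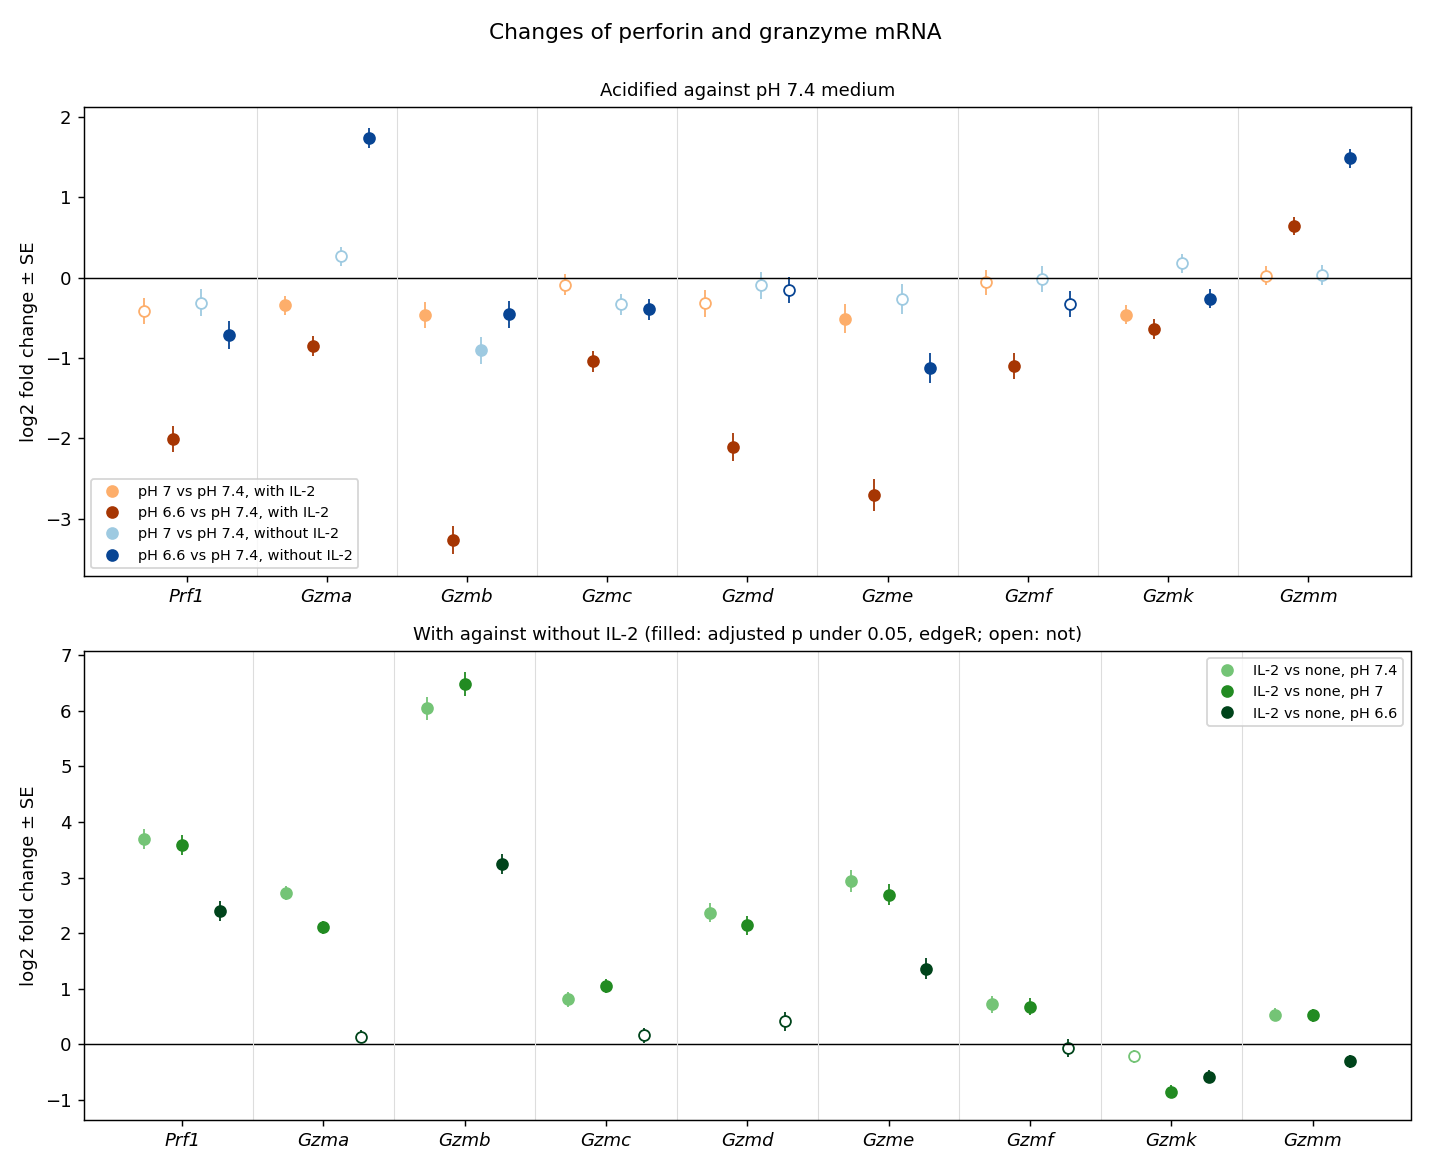
Log2 fold change ± SE of each member from the edgeR fit (35 libraries, 5 per group), above for acidified against pH 7.4 medium and below for IL-2 against no IL-2; filled points passed an adjusted p of 0.05 and open points did not. With IL-2 the largest fall at pH 6.6 is that of Gzmb (-3.27), without IL-2 the largest rise is that of Gzma (1.74), and IL-2 raises Gzmb most at every pH.

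IL-2 itself raised 8 of 9 members at pH 7.4, where 39.3% of all genes tested were called higher and 80.4% were called in either direction. The largest difference was that of Gzmb, 66.1-fold (log2 fold change 6.05 ± 0.20, adjusted p = 1.15e-22, edgeR). Prf1 was 12.9-fold higher (3.69 ± 0.18), Gzme 7.66-fold (2.94 ± 0.20), Gzma 6.58-fold (2.72 ± 0.13) and Gzmd 5.16-fold (2.37 ± 0.17). Gzmc (0.81 ± 0.13), Gzmf (0.72 ± 0.16) and Gzmm (0.53 ± 0.12) rose by less than 2-fold, and for Gzmc and Gzmf the adjusted p was 0.0795 and 0.274 without the block. Gzmk differed by -0.22 ± 0.12 (adjusted p = 0.0930). At pH 7, 9 of 9 members were called against 77.2% of all genes, with 8 higher and Gzmk lower (-0.86 ± 0.12, adjusted p = 9.82e-08). At pH 6.6, 5 of 9 were called against 23.7% of all genes. Prf1 (2.40 ± 0.17), Gzmb and Gzme (1.36 ± 0.19) were higher with IL-2, while Gzmk (-0.59 ± 0.12) and Gzmm (-0.31 ± 0.11) were lower. Without the block 3 were called, Prf1, Gzmb and Gzmk, against 17.5% of all genes. The call for Gzmm was lost without any 1 of the 5 replicates (adjusted p from 0.0585 to 0.157). When only the 2 groups compared were fitted, 8 of 9 were called, against 42.9% of all genes.

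The interaction contrast tests whether the effect of pH 6.6 differs with and without IL-2. It was called for 8 of 9 members, all in the negative direction, where 67.0% of all genes tested were called and 32.8% were called and negative. The interaction was largest for Gzmb (log2 -2.81 ± 0.24, adjusted p = 5.23e-12, edgeR) and Gzma (-2.59 ± 0.17, adjusted p = 9.27e-15). For Gzmb the acid effect went from -0.46 without IL-2 to -3.27 with it, and for Gzma from 1.74 to -0.85. The values were -1.96 ± 0.24 for Gzmd, -1.58 ± 0.26 for Gzme, -1.30 ± 0.23 for Prf1, -0.84 ± 0.16 for Gzmm, -0.78 ± 0.23 for Gzmf and -0.65 ± 0.19 for Gzmc. Gzmk had -0.37 ± 0.17 (adjusted p = 0.0510). Without the replicate block 5 members passed, against 63.0% of all genes, as Gzmc (adjusted p = 0.344), Gzme (0.0708) and Gzmf (0.376) did not. For pH 7, the interaction was called for Gzma (-0.61 ± 0.17, adjusted p = 0.0275) and Gzmk (-0.64 ± 0.17, adjusted p = 0.0229), 2 of 9 against 4.79% of all genes, and for 0 of 9 without the block (1.28% of all genes). Both calls were also lost without replicate 2, 3 or 4 (adjusted p from 0.0718 to 0.277), and that for Gzma without replicate 1 (0.0689).

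Against the starting cells, IL-2 at pH 7.4 kept some members and raised others. Of the 9, 5 were called against 59.9% of all genes, with Gzmd (0.83 ± 0.17), Gzme (1.00 ± 0.18) and Gzmf (1.05 ± 0.16) higher and Prf1 (-0.51 ± 0.16) and Gzmm (-1.19 ± 0.11) lower than at 0 h. Only Gzmm was called without the block, against 54.8% of all genes. Gzmb (-0.04 ± 0.16) and Gzma (0.03 ± 0.12) were within their error of 0. After 24 h at pH 7.4 without IL-2, 7 of 9 members were lower than at 0 h, where 75.2% of all genes tested were called and 38.3% were called lower. Gzmb had fallen 67.9-fold (log2 fold change -6.08 ± 0.20, adjusted p = 4.56e-22, edgeR), Prf1 18.4-fold (-4.20 ± 0.18) and Gzma 6.45-fold (-2.69 ± 0.13), whereas Gzmf (0.33 ± 0.16) and Gzmk (0.24 ± 0.12) were not called.

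At pH 6.6 with IL-2, 8 of 9 were lower than at 0 h, where 68.5% of all genes tested were called and 38.0% were called lower, and Gzmf was at -0.06 ± 0.16. At pH 6.6 without IL-2, 7 of 9 were lower, where 75.1% of all genes were called and 40.3% called lower, with Gzmb at -6.54 ± 0.21, Prf1 at -4.91 ± 0.19 and Gzme at -3.06 ± 0.20, but Gzma at -0.95 ± 0.12 and Gzmm at -0.24 ± 0.11 (adjusted p = 0.0463, and 0.141 without the block). This call for Gzmm held in 1 of 13 alternatives, that without replicate 4. These 4 comparisons share the 0 h libraries. Set directly against neutral medium without IL-2, acid medium with IL-2 called 6 of 9 members against 64.4% of all genes. Prf1 (1.68 ± 0.17), Gzma (1.87 ± 0.12), Gzmb (2.78 ± 0.18) and Gzmm (1.17 ± 0.12) were higher in acid with IL-2, and Gzmf (-0.39 ± 0.16) and Gzmk (-0.85 ± 0.12) lower. Gzmf, at an adjusted p of 0.0357, was lower in 3 of 5 replicates, and its call held in 4 of 13 alternatives. It was lost, for instance, with RLE scaling (adjusted p = 0.0670), with DESeq2 (0.0669), without the block (0.404) and without replicate 2 (0.261), 4 (0.180) or 5 (0.147).

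The balance between granzymes B and A can be read within each library, where it does not depend on scaling. There were 3.70 Gzmb counts for each Gzma count at 0 h (median, range 2.42 to 4.56), and with IL-2 there were 3.22 in neutral medium (3.19 to 3.70) and 3.13 at pH 7 (2.69 to 3.97). In acid with IL-2 the ratio was 0.690 (0.448 to 0.846), so that Gzma had more counts than Gzmb in every library. In the absence of IL-2 the ratio was 0.330 (0.251 to 0.430) at pH 7.4, 0.152 (0.10 to 0.189) at pH 7 and 0.0753 (0.0643 to 0.0776) at pH 6.6. These last 4 ranges did not overlap each other. Per length, Gzma had the highest mean of the members at pH 6.6 with IL-2 and at each pH without IL-2. At pH 6.6 without IL-2, Gzma was at 1168 ± 189 RPKM and Gzmb at 60.2 ± 11.8 RPKM.

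The pair Gzmd and Gzme, alike in sequence and upstream region, also changed in proportion. There were 2.44 Gzmd counts for each Gzme count at 0 h (range 2.33 to 2.74), 2.2 in neutral medium with IL-2 (2.09 to 2.38) and 3.41 in acid with IL-2 (3.0 to 3.89). Without IL-2 the ratio was 3.36 (3.07 to 3.46) at pH 7.4, 3.73 (3.51 to 3.76) at pH 7 and 6.23 (5.72 to 7.56) at pH 6.6. The last range lay above all others. Reads from stretches that the pair share were not counted for either, so these ratios rest on the stretches in which they differ.

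**Figure D3:**
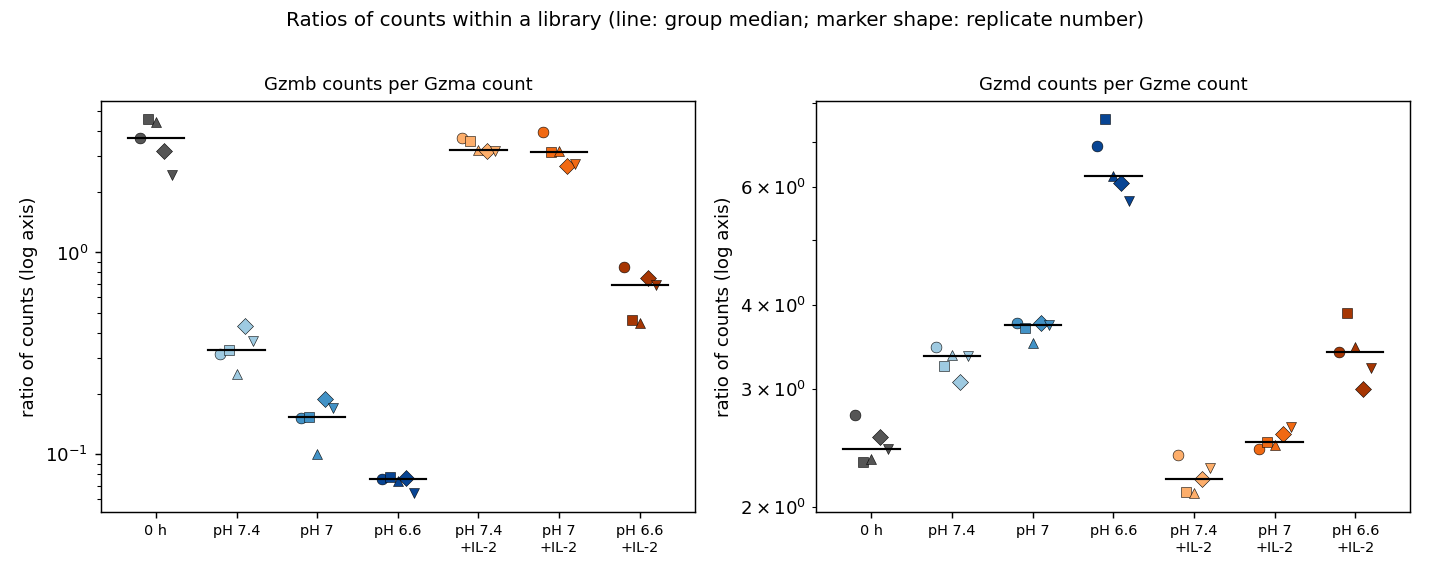
Counts of Gzmb per Gzma count (left) and of Gzmd per Gzme count (right) in each library, on log axes, with the group median as a line and the replicate number as marker shape. At pH 6.6 without IL-2 the first ratio is the lowest (median 0.0753) and the second the highest (median 6.23) of the 7 groups.

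Other genes of the cytotoxic pathway, granule genes as well as death ligands and regulators, were taken from 6 lists with 46 genes. Of these, 44 were tested. In acid against neutral medium with IL-2, 13 of the 44 were higher, 15 lower and 16 not called. Of all genes tested, 35.4% were called higher and 40.9% lower there. The median log2 fold change of the 44 genes was -0.06. Without IL-2, 12 were higher, 13 lower and 19 not called (median 0.06), against 31.6% higher and 35.4% lower of all genes. For IL-2 at pH 7.4, 17 were higher and 17 lower (median -0.01), against 39.3% and 41.1% of all genes. The lists join genes of different roles, inhibitors and death ligands among them. These pooled counts are therefore no contrast to the members.

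The remaining granzymes of the cluster are Gzmg and Gzmn. Gzmg was 422 ± 263 CPM (SD, n = 5) at pH 7.4 with IL-2 and 332 ± 155 CPM at pH 6.6 (log2 fold change -0.26 ± 0.18, adjusted p = 0.202, edgeR). Without IL-2 it was higher in acid, 172 ± 99.7 CPM at pH 7.4 and 479 ± 289 CPM at pH 6.6, in 5 of 5 replicates with overlapping ranges (1.52 ± 0.19, adjusted p = 2.97e-08). Gzmg thus moved like Gzma without IL-2 and not like its neighbours Gzmd and Gzme, although its counts are limited too, with 80.2% of its windows in no other gene. Gzmn was under 1 CPM in every group mean, with 0.404 ± 0.325 CPM at pH 7.4 with IL-2. At this low level Gzmn was also called higher in acid without IL-2 (1.36 ± 0.52, adjusted p = 0.0225, edgeR). With IL-2 it was called lower in acid (-1.21 ± 0.44, adjusted p = 0.0148).

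Of 13 genes tested for granzyme processing and granule content, 4 were higher and 3 lower at pH 6.6 with IL-2 (all genes: 35.4% and 40.9%). Ctsl, the lysosomal protease cathepsin L, rose (2.03 ± 0.14, adjusted p = 5.85e-15), from 1.38 ± 0.185 to 5.70 ± 0.636 CPM. Calr, the chaperone calreticulin that accompanies perforin in granules, fell (-1.58 ± 0.06, adjusted p = 5.69e-21), as did Nkg7, a granule membrane protein needed for degranulation (-1.0 ± 0.09, adjusted p = 8.97e-12). Without IL-2, Ctsl was lower in acid (-0.41 ± 0.11), Calr was higher (0.88 ± 0.06) and Nkg7 was not called (0.10 ± 0.09).

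Of 14 genes for granule transport and release, 4 were higher and 5 lower at pH 6.6 with IL-2 (all genes: 35.4% and 40.9%). Lyst, the regulator of lysosome size lost in Chediak-Higashi syndrome, rose (1.98 ± 0.18, adjusted p = 3.25e-11), as did Sytl1, a synaptotagmin-like granule tethering protein (1.77 ± 0.15, adjusted p = 1.99e-12), and Vamp2, a vesicle SNARE (1.66 ± 0.09, adjusted p = 5.01e-17). With IL-2 at pH 7.4 these 3 genes were lower than without it, with log2 fold changes of -2.37 ± 0.19 for Lyst, -1.62 ± 0.15 for Sytl1 and -1.31 ± 0.09 for Vamp2.

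Of 6 inhibitors, 1 was higher and 3 lower at pH 6.6 with IL-2 (all genes: 35.4% and 40.9%). Serpinb6b, an intracellular serpin, rose (1.99 ± 0.16, adjusted p = 4.59e-13, edgeR). Serpina3g (-1.69 ± 0.21, adjusted p = 2.00e-08) and Serpinb9b (-2.15 ± 0.26, adjusted p = 4.53e-09) fell. Serpinb9b is a relative of the granzyme B inhibitor Serpinb9, and the level of Serpinb9b was low, at 2.33 ± 1.01 CPM. Without IL-2, Serpinb6b, Serpina3g and Serpinb9b moved the same way, by 2.92 ± 0.16, -2.84 ± 0.22 and -3.74 ± 0.23. Serpinb9, which protects the CTL from its own granzyme B, fell with IL-2 (-0.66 ± 0.14, adjusted p = 1.07e-04) and rose without it (1.67 ± 0.15, adjusted p = 1.65e-11), as Gzma did.

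Of 3 death ligands, which kill through receptors and not through granules, Fasl (0.58 ± 0.12, adjusted p = 8.69e-05) and Tnfsf10 (0.50 ± 0.13, adjusted p = 6.45e-04) were higher and Lta, lymphotoxin alpha, was lower (-2.55 ± 0.12, adjusted p = 4.82e-19) at pH 6.6 with IL-2. Tnfsf10 did not pass without the block (adjusted p = 0.122). Of 6 regulators of cytotoxic genes, 2 were higher, 2 lower and 2 not called at pH 6.6 with IL-2 (all genes: 35.4% higher and 40.9% lower). Eomes, a T-box factor that activates Prf1 and Gzmb, fell from 614 ± 43.3 to 190 ± 26.2 CPM (-1.69 ± 0.09, adjusted p = 2.64e-17, edgeR). Runx3, a factor that binds the Runx motif (0.73 ± 0.09, adjusted p = 5.11e-09), and Stat5b, which carries the IL-2 signal (0.56 ± 0.07, adjusted p = 7.35e-09), rose.

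**Figure D4:**
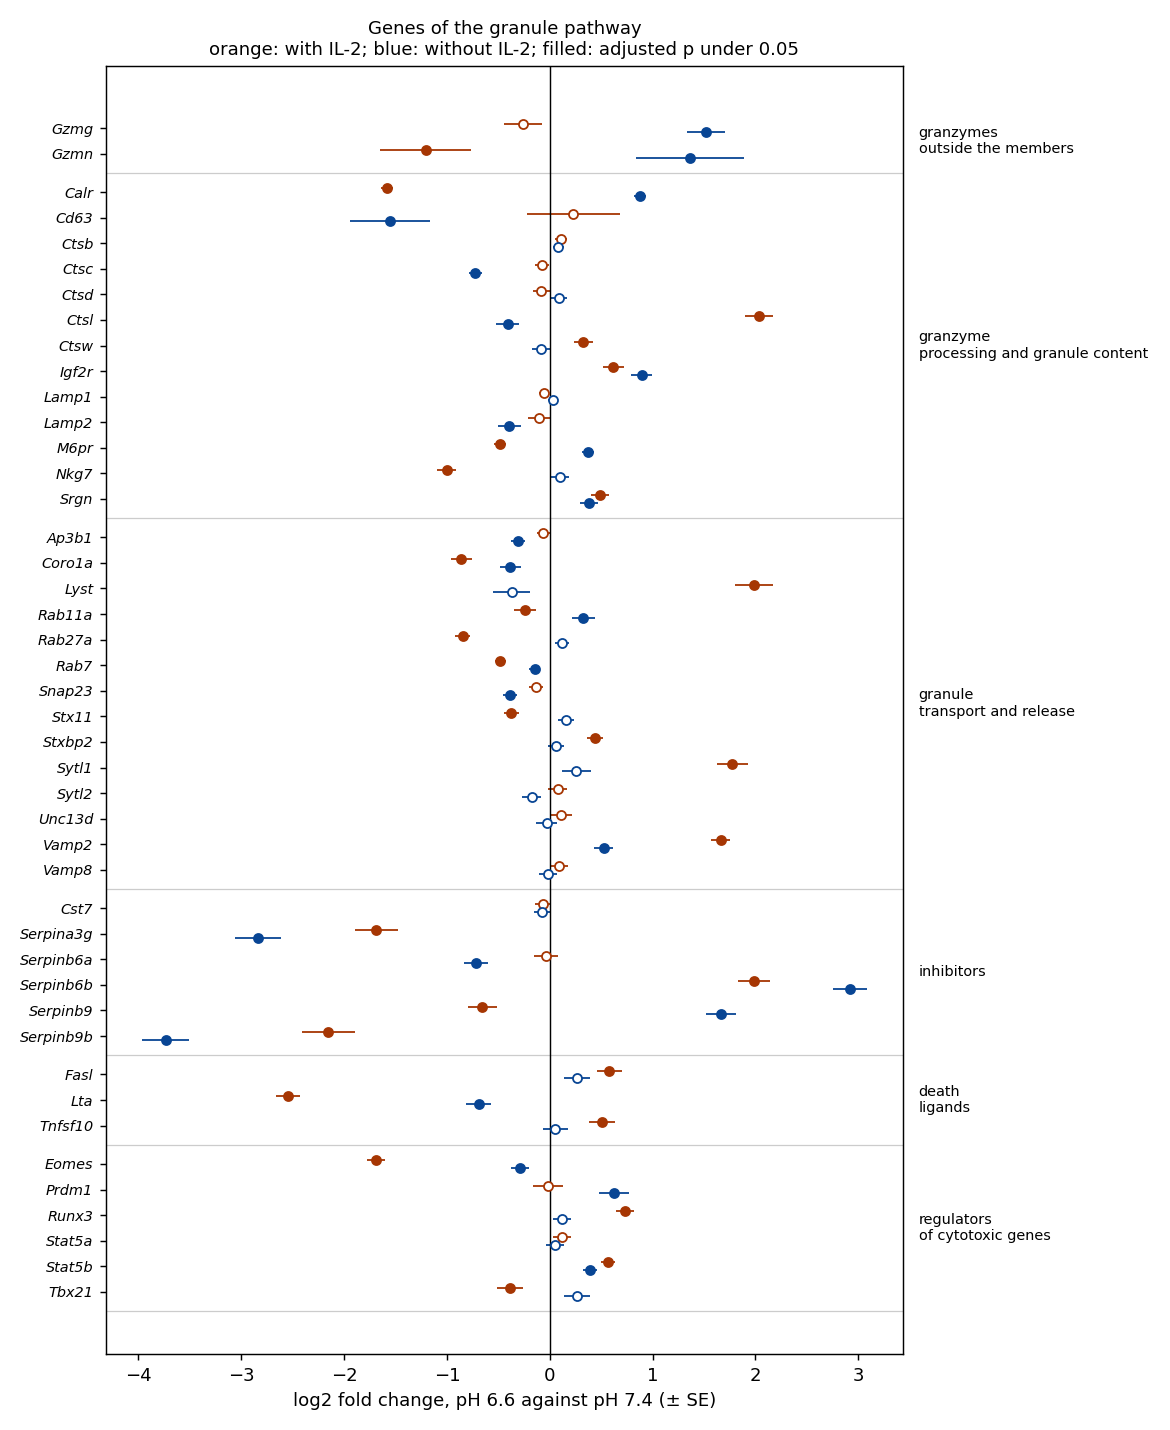
Log2 fold change ± SE of pH 6.6 against pH 7.4 for the 44 tested genes of the 6 cytotoxic pathway lists. Values with IL-2 are in orange and those without IL-2 in blue, and filled points passed an adjusted p of 0.05 (edgeR). Genes lie on both sides of 0 in each list but that of Gzmg and Gzmn, which are below 0 with IL-2 and above 0 without. Serpinb9, Calr, M6pr and Ctsl are among the genes on opposite sides with and without IL-2.

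The genes most like a member over the 7 groups were found by the root mean square difference of centred log2 CPM group means. The search covered the 8999 genes outside the members whose mean log2 CPM reached 3. For Prf1 the nearest were Ccn3 (0.24), Tcrg-C1 (0.39) and Syce2 (0.42), and for Gzmb they were Tgm2 (0.64), Lif (0.66) and Hk2 (0.67). For Gzma they were Acsl3 (0.17), Serpinb9 (0.18) and Bcl2l1 (0.18). Serpinb9 went from 53.1 ± 11.6 CPM at pH 7.4 to 167 ± 20.7 CPM at pH 6.6 without IL-2, and from 328 ± 25.1 to 207 ± 9.01 CPM with IL-2. For Gzmd the nearest were Prmt1 (0.06), Snrpd3 (0.08) and Mtap (0.09), and for Gzme they were Polr1b, Hsd17b12 and Nop16 (0.13 to 0.14).

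The nearest genes were Trp53inp2, Mfsd5 and Snx25 (0.08 to 0.09) for Gzmc, Akip1, Ndufaf2 and Ankrd28 (0.06 to 0.08) for Gzmf, and Dnajc15, Ccdc90b and Gin1 (0.12 to 0.13) for Gzmk. For Gzmm they were Pim1 (0.10), Nlgn2 (0.12) and Snhg15 (0.15). Pim1, a kinase gene induced by cytokines, was 170 ± 21.7 CPM at pH 7.4 and 307 ± 41.9 CPM at pH 6.6 with IL-2, and 133 ± 12.5 and 316 ± 36.7 CPM without it. Among the members the most alike were Gzmd and Gzme (0.48) and the least alike Gzmb and Gzmk (3.13). The search for nearest genes left out the members, so no member could be listed there. Compared as pairs, each member was further from every other member than from its 3 nearest genes. Those genes were the closest of 8999 candidates, and the other members are few. This order therefore says little about how alike the members are. These likenesses describe 7 group means of the same libraries and were not tested.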

How the data were processed

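RNA-seq libraries of 35 OT-I CTL cultures were analysed from the raw counts per gene that the authors deposited, whole numbers for 48709 Ensembl genes. Per the labels, reads were trimmed with cutadapt 1.8, aligned to GRCm38 with STAR 2.5.2b and counted with HTSeq 0.6.1. The kit was stranded, and the strand setting and annotation release of the counting are not given in the sources used here. The closing rows of each table were left out. They held 32.8 to 48.3% of all alignments as not unique, 2.58 to 11.1% outside genes and 0.871 to 0.997% as ambiguous.

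Genes were kept by filterByExpr with a minimum count of 10 (13819 genes), scaled by TMM and fitted with robust quasi-likelihood in edgeR 4.0.16 (R 4.3.3, limma 3.58.1), with a term for each of the 7 groups and the replicate number as a block. All 35 libraries entered the fit, p-values were adjusted by Benjamini-Hochberg over all genes tested in each of 16 contrasts, and 0.05 was the threshold. The interaction was the acid effect with IL-2 minus that without IL-2. Replicate numbers were taken as pairs because the study cultured cells of the same 5 replicates in each condition. Of 105 same-numbered pairs of libraries 95 had deviations from their group means correlated above 0.1, with a median r of 0.27 against -0.07 for 420 pairs of different number.

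Named genes were the 9 members, the 3 genes of each pathway list with the largest change from neutral to acid medium (IL-2 present) among those called (all genes of lists of 3 or fewer), and the 3 genes nearest to each member in pattern. The members and lists were chosen with earlier results of these data known. M6pr was named after its values were seen. Windows before gene starts were taken from RefSeq and gene positions from GENCODE M21. Alternatives were RLE scaling, DESeq2 1.42.0, a looser and a stricter count filter, library sizes without the 9 members, only the groups compared, no replicate block, an added cutoff of 1 on the absolute log2 fold change, leaving out each replicate and, chosen after seeing the data, Gzmd and Gzme summed.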

Additional observations from a re-analysis of the deposited data

Results flagged for a closer look

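Among 63 groups of 5 libraries, 9 members in 7 conditions, 1 held a library far from the others, where chance would give about 1 in 20. Gzmk at pH 6.6 without IL-2 was highest in replicate 1. On the scale of log2 CPM, its gap to the next library was 0.763 of the range of the group, above the critical value of 0.71 for 5 libraries.

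For 8 of 9 members the interaction test in edgeR called a difference between the acid effects in the presence and absence of IL-2. The difference of the log2 fold changes, with IL-2 minus without, was -1.30 for Prf1, -2.59 for Gzma, -2.81 for Gzmb, -0.65 for Gzmc, -1.96 for Gzmd, -1.58 for Gzme, -0.78 for Gzmf and -0.84 for Gzmm. Each of these differences was negative in 5 of 5 replicates. The effect of pH 7 differed in the same test for Gzma (-0.61) and Gzmk (-0.64).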

How the results depend on the processing

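Over all alternatives, values of single members in single comparisons stayed on the same side of the threshold and in the same direction 1696 times, lost the call 139 times, gained it 34 times and turned direction 35 times, the last with no call on either side. The limits of these data are 5 cultures per group, counts that leave out reads shared between Gzmc, Gzmd, Gzme and Gzmf, and Gzmm levels near 10 CPM or below.

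Apart from the calls lost to the added cutoff by definition, the cause of the changes under each alternative was not tested. Without the replicate block, members called (with the percent of all genes called in the same fit in brackets) went from 4 to 1 (12%) between pH 7 and pH 7.4 with IL-2, and without IL-2 from 7 to 3 (62.2%) from pH 7.4 to pH 6.6, from 1 to 0 (0.405%) between pH 7 and pH 7.4 and from 6 to 3 (62.4%) between pH 6.6 and pH 7. They went from 5 to 3 (17.5%) for IL-2 at pH 6.6, from 8 to 5 (63.0%) for the interaction at pH 6.6, from 2 to 0 (1.28%) for that at pH 7 and from 5 to 1 (54.8%) for pH 7.4 with IL-2 against 0 h. In the other 8 comparisons the count stayed within 1.5 times.

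When calls also had to pass 1 in absolute log2 fold change, with IL-2 the counts were 0 (1.47%) between pH 7 and pH 7.4 and 5 (27.7%) between pH 6.6 and pH 7. Without IL-2 they were 3 (20.5%) from pH 7.4 to pH 6.6, 0 (0.449%) between pH 7 and pH 7.4 and 2 (19.6%) between pH 6.6 and pH 7. They were 5 (40.9%) for IL-2 at pH 7.4, 3 (3.73%) for IL-2 at pH 6.6, 5 (33.9%) and 0 (0.868%) for the interactions at pH 6.6 and pH 7, 3 (15.1%) for pH 7.4 with IL-2 against 0 h and 5 (22.7%) for pH 6.6 with IL-2 against 0 h. With only the groups compared, 6 members (7.32%) were called between pH 7 and pH 7.4 without IL-2 and 8 (42.9%) for IL-2 at pH 6.6. With the looser filter 2 (7.30%) were called between pH 7 and pH 7.4 with IL-2. Leaving out 1 replicate gave 1 to 4 members for that comparison (2 without replicate 2 or 5, 1 without replicate 3 or 4, against 9.24 to 17.6% of all genes) and 0 to 2 for the interaction at pH 7 (1 without replicate 1, 0 without replicate 2, 3 or 4, against 0.706 to 5.16% of all genes).

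The values that turned direction were log2 fold changes near 0. Against 0 h, Gzma at pH 7.4 with IL-2 was -0.0065 without the block and -0.0416 to 0.17 when 1 replicate was left out, and Gzmb was -0.10 to 0.0429 and Gzmk -0.0304 to 0.0927 there. Gzmf at pH 6.6 with IL-2 was 0.0123 with RLE, 0.0144 with DESeq2 and -0.0625 to 0.0253 with 1 replicate left out, and without IL-2 it was -0.0918 to 0.0973. Gzmk at pH 6.6 without IL-2 was 0.0351 with RLE, 0.0348 with DESeq2, 0.0092 with library sizes without the members, 0.0017 with the stricter filter, 0.0411 with only the groups compared and -0.10 to 0.12 with 1 replicate left out. The remaining ranges with 1 replicate left out were -0.20 to 0.0266 for Gzmc and -0.26 to 0.0618 for Gzmd between pH 6.6 and pH 7 without IL-2, and -0.0824 to 0.0520 for Gzmf and -0.0496 to 0.10 for Gzmm between pH 7 and pH 7.4 without IL-2. They were -0.0238 to 0.0817 for Gzmm between pH 7 and pH 7.4 with IL-2 and -0.14 to 0.0293 for Gzmf with IL-2 at pH 6.6. For the interaction at pH 7, Gzmf was 0.0592 without the block and -0.14 to 0.0527 with 1 replicate left out, and Gzmm was 0.0060 with the looser filter, 0.0036 with the stricter filter, 0.0008 with only the groups compared and -0.12 to 0.13 with 1 replicate left out. Of the pathway genes, Serpina3g was -0.11 to 0.32 and Fasl -0.0037 to 0.11 for IL-2 at pH 7.4, and Tnfsf10 was -0.0325 to 0.17 from pH 7.4 to pH 6.6 without IL-2.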
